A study of Mus musculus with 8 samples.

Results

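The mouse mitochondrial genome carries 37 genes, and all 37 stood in the count table among its 46625 gene names. They were taken by their symbols, which start with mt-, and comprise 2 ribosomal RNA (rRNA) genes, 13 messenger RNA (mRNA) genes and 22 transfer RNA (tRNA) genes. They were measured in 8F10 T cells, which carry a T cell receptor that recognises an insulin peptide. Donors were TCR alpha chain-deficient 8F10 mice (CD45.2), and their bone marrow, without T and B cells, went into hosts that carried CD45.1 and had received sub-lethal irradiation. In one group the hosts were NOD mice, the diabetes-prone strain with native insulin. In the other they were B16A mice, NOD mice in which the insulin B chain carries a changed residue. The T cells were sorted from inguinal lymph nodes after 6 weeks in both groups, and the strain label of every sample was NOD/ShiLtJ. Each group had 4 libraries, numbered by batch from 1 to 4, with 1 library per host in each batch. The irradiated hosts may keep cells of their own, the age of the animals was not stated, and neither was the number of animals behind a sample. Every p-value therefore rests on the variation from sample to sample, part of which may be technical.

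Mitochondrial DNA is copied into long transcripts from both of its strands, and the tRNAs lie between the other genes like punctuation: cutting them out releases the rRNAs and mRNAs. The rRNAs build the mitochondrial ribosome, and every mRNA codes for a membrane subunit of the respiratory chain or of ATP synthase. Most of the coding sequence is on the strand called plus in the annotation, and mt-Nd6 and some of the tRNAs lie on the minus strand. Resting T cells rely on respiration for most of their ATP, and they build up mitochondria when they are activated.

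The libraries differed in depth and make-up by batch. Total counts were 4896593 to 6137666 in the 6 libraries of batches 1 to 3, and 28301805 and 28094237 in the NOD and B16A libraries of batch 4. T cell marker transcripts (8 genes) summed to 4754 to 9309 CPM (counts scaled to the adjusted library size) in batches 1 to 3, and to 16456 and 12638 CPM in the NOD and B16A libraries of batch 4. Not all T cell markers were higher in batch 4: Cd4 stood at 917 and 699 CPM there, below its 1026 to 1204 CPM in the other libraries. The 4 B cell markers summed to 1.59 to 8.79 CPM, the 5 myeloid markers to 47.9 to 130 CPM, the 5 erythroid markers to 0.21 to 4.99 CPM, the 4 markers of CD8 T and NK cells to 66.4 to 186 CPM and the 4 stromal and endothelial markers to 270 to 411 CPM over the 8 libraries. Most of the CD8 and NK, stromal and myeloid sums came from 1 gene each (Cd8b1, Pecam1 and Cst3), while the myeloid markers Csf1r and Itgax stood at 0.67 CPM or less in batch 4, Cd8a stood at 0 to 3.56 CPM, and Hba-a2 was at 0 in all libraries. Their part in the results below was not tested. The pair of libraries of batch 4 stood apart, so the results are given with and without it. In bulk RNA, fewer cells of a type and less RNA per cell cannot be told apart.

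Only part of the mitochondrial genome had counts. Of the 37 genes, 13 were listed at 0 in all 8 libraries: mt-Atp6 and mt-Atp8 (ATP synthase), mt-Co3 (cytochrome oxidase), mt-Nd3 and mt-Nd4l (complex I), and 8 tRNA genes. A further mRNA, mt-Co2, a copper-binding subunit of cytochrome oxidase, had 1 count in all, in the B16A library of batch 4. The near-empty genes were mostly neighbours. Between mt-Co1, which had 10646 to 129921 counts, and mt-Nd4, which had 5064 to 49460, lie 11 genes in a row, and none of the 11 had more than 1 count in any library. Outside this stretch 3 of 26 genes were equally empty, the tRNA genes mt-Tw, mt-Ty and mt-Th.

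The empty stretch matches a nuclear copy of mitochondrial DNA. In the GENCODE annotation of GRCm38 (the assembly also called mm10), 7 pseudogenes in a row on the minus strand of chromosome 1 copy mt-Co1 to mt-Nd4 in the same order. They span chr1:24611535-24616197 and correspond to chrM:6381-11042. Of 4149 aligned bases in these 7 genes, 4142 were identical, and all 11 empty neighbours lie whole inside the copied span. The start of mt-Co2 (chrM:7013-7072, plus strand) and of its copy Gm28661 (chr1:24615506-24615565, minus strand) is shown because no read of 50 bases from it can be placed by sequence alone: the letters are identical here and over all 681 aligned bases. The start of mt-Nd3 (chrM:9459-9518, plus strand) differs from its copy Gm28438 (chr1:24613060-24613119, minus strand) at 1 base, T3C, which is also the only difference over 345 aligned bases. All sequences are those of the reference assembly, written 5′ to 3′, and positions count from 1 at the 5′ end of the mitochondrial gene. Capitals mark bases of a copy that differ from the mitochondrial gene.
mt-Co2: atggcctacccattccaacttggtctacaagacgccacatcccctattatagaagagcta
Gm28661: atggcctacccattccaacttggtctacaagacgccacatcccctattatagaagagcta
mt-Nd3: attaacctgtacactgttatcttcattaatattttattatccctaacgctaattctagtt
Gm28438: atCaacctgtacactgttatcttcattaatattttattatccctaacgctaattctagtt

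The edge of the copy as annotated falls inside mt-Co1, the catalytic subunit of cytochrome oxidase. Bases 1054 to 1113 of mt-Co1 (chrM:6381-6440, plus strand) are shown with the first bases of Gm29216 (chr1:24616138-24616197, minus strand), where the annotated copy begins. The differences of Gm29216 are T1056A, C1057T, A1059G, A1060G, C1062A and A1066T, and beyond them the remaining aligned bases of its 492 are the same as in mt-Co1. A separate copy on chromosome 2, Gm13340 (chr2:22588535-22588594, minus strand), covers all 1545 bases of mt-Co1 with 37 differences, of which T1056C and T1072C fall in this stretch.
mt-Co1: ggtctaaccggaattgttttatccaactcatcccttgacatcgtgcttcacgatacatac
Gm29216: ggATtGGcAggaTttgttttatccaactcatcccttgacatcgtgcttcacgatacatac
Gm13340: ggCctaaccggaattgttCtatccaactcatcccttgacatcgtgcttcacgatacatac

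The share of each gene that cannot be told from another annotated transcript was measured in windows of 50 bases, the read length. All windows of mt-Co2 also stood in another transcript (100%), as did 99.9% of those of mt-Co3, 99.5% of mt-Atp6, 98.8% of mt-Nd4l and 98% of mt-Nd3. These 5 mRNA genes have copies annotated over nearly their full length, and all 5 had at most 1 count per library. The share was 62.2% for mt-Nd4 and 51.1% for mt-Co1, which lie partly in the copied span, and 8.19% for mt-Nd2, 7.61% for mt-Nd5 and 1.04% for mt-Rnr2. The other mRNA and rRNA genes with counts (mt-Nd1, mt-Nd6, mt-Cytb and mt-Rnr1) shared no window with another transcript. mt-Atp8 and the 5 tRNA genes inside the span also shared none. None of the 7 pseudogenes was matched to them, and only annotated transcripts were searched. Whether chromosome 1 copies these genes was therefore not checked by sequence here.

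**Figure D1:**
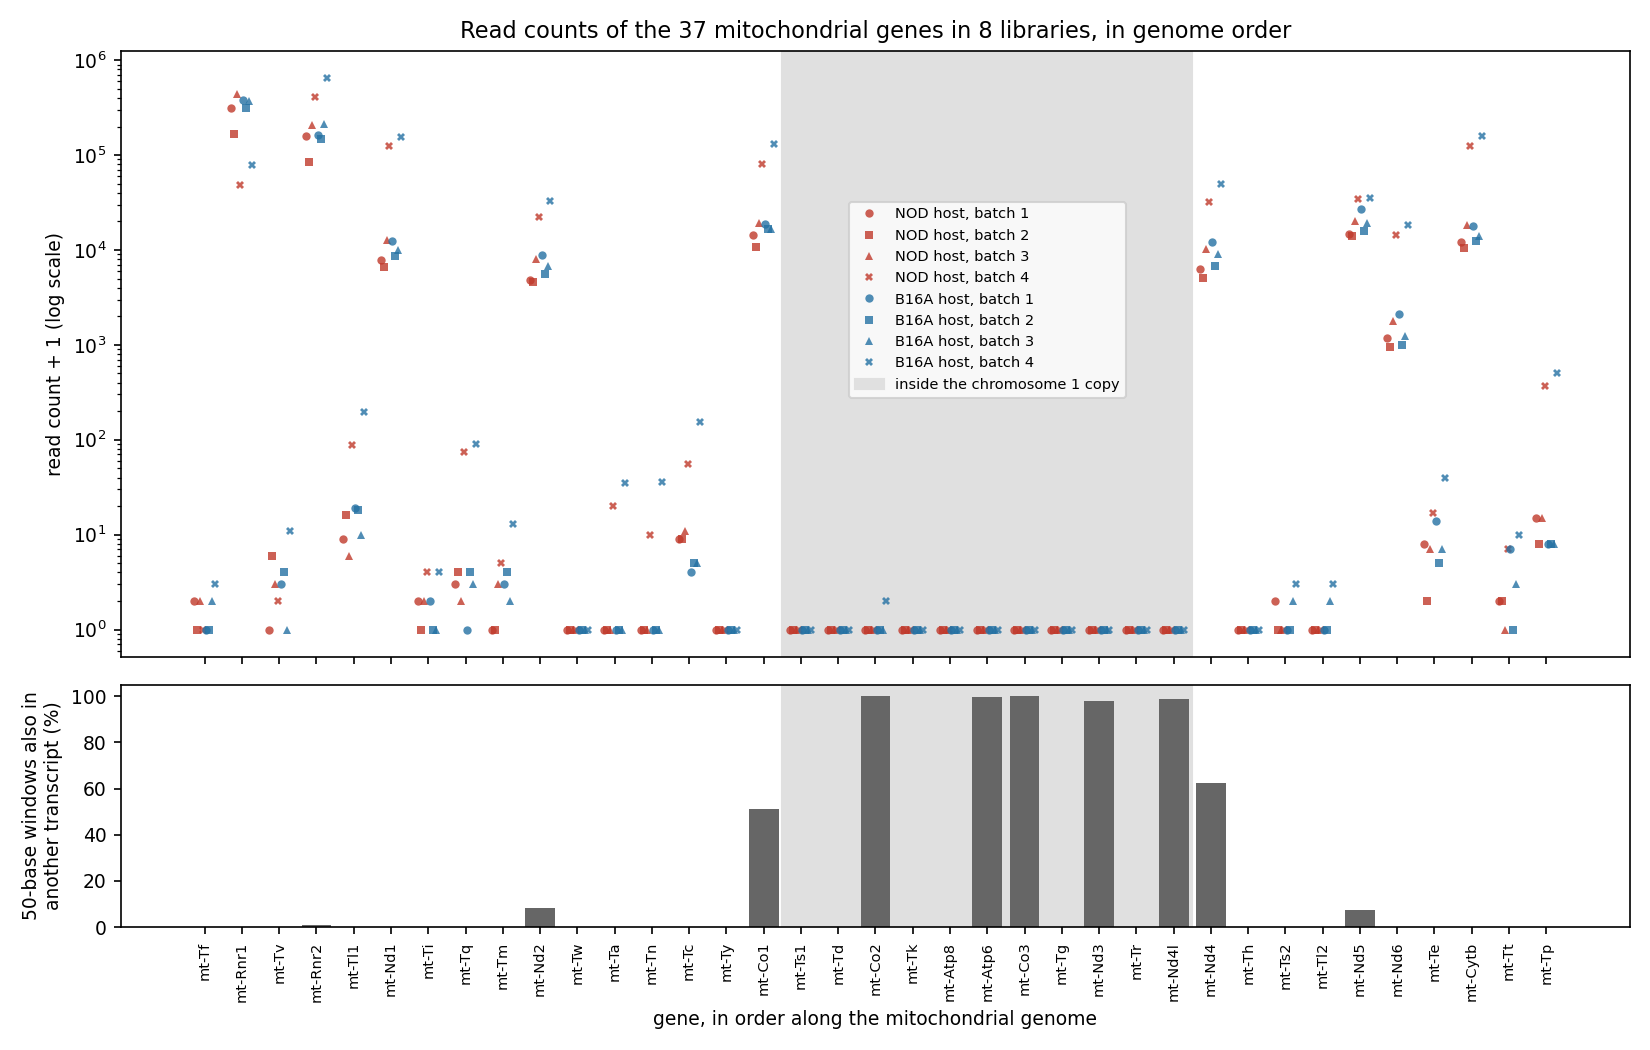
Upper panel: read count plus 1 (log axis) of each of the 37 mitochondrial genes in genome order, 1 point per library, coloured by host and shaped by batch. Lower panel: percent of 50-base windows of each gene that also stand in another annotated transcript. The 11 genes on the grey ground, inside the chromosome 1 copy, had at most 1 count in every library.

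The plot of counts along the mitochondrial genome shows the gap between mt-Co1 and mt-Nd4 in every library. The copies had few counts as well. Apart from Gm28438, the genes of the chromosome 1 copy had at most 10 counts in any library. Gm28438, the copy of mt-Nd3, had 0 to 3 counts in each library of batches 1 to 3 but 242 and 365 in the NOD and B16A libraries of batch 4. Scaled to library size, Gm28438 stood at 0 to 0.468 CPM and then 10.8 and 15.3 CPM. Gm13340, the chromosome 2 copy, had 26 to 261 counts, and at 4.21 to 9.29 CPM and then 6.68 and 10.9 CPM its groups overlapped. How reads with several equal matches were treated is not given in the sources used here, and its part in the empty stretch was not tested. A count of 0 for these genes therefore gives no level of the transcript, and the levels of mt-Co1 and mt-Nd4, which share many windows, are uncertain for the same reason.

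Levels of the 9 genes with ample counts (2 rRNAs and 7 mRNAs) were compared per length, as CPM per 1000 windows that stand in no other transcript. In batches 1 to 3 the small (12S) rRNA mt-Rnr1 led at a mean of 59624, and the large (16S) rRNA mt-Rnr2 followed at 17450. Among the mRNAs, mt-Co1 stood at 3612, mt-Nd4 at 2686, mt-Cytb (complex III) at 2124, mt-Nd5 at 1848, mt-Nd1 at 1741, mt-Nd2 at 1162 and mt-Nd6 at 479. The order of neighbours held in 6 of 6 libraries, except mt-Cytb before mt-Nd5 and mt-Nd5 before mt-Nd1, which held in 5 of 6. Divided by full length instead, with no allowance for copies, mt-Cytb led the mRNAs at 2033 CPM per kilobase, mt-Co1 followed at 1709 and mt-Nd4 stood at 979, behind mt-Nd2 at 1016. The places of mt-Co1 and mt-Nd4 thus rest on whether shared windows held counts, which was not tested. In batch 4 the order per 1000 own windows was another: mt-Rnr2 led at 14905, ahead of mt-Nd1 at 6636, mt-Co1 at 6169, mt-Cytb at 5570, mt-Nd4 at 3484, mt-Rnr1 at 2998, mt-Nd6 at 1507, mt-Nd2 at 1305 and mt-Nd5 at 924. The place of mt-Co1 beside mt-Nd1 and mt-Cytb could not be told there, since each step held in 1 of 2 libraries. mt-Nd1 lay above mt-Cytb in both libraries, at 6199 to 7074 against 5078 to 6061. By full length mt-Co1 stood at 2919 CPM per kilobase in batch 4, below mt-Cytb at 5331.

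The first comparison asked how T cells from hosts with native insulin differ from T cells of B16A hosts. Mitochondrial genes took 9.46%, 6.21%, 12.1% and 3.13% of all counts in the NOD libraries of batches 1 to 4. In the B16A libraries they took 10.4%, 8.72%, 11.4% and 4.63%. The groups overlapped, as they had to with both batch 4 libraries below all others. The library of the NOD host was the lower one in batches 1, 2 and 4 and the higher one in batch 3.

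Among the rRNAs, mt-Rnr1 stood at 54494, 31108, 72515 and 2154 CPM in NOD hosts and at 57370, 48605, 60022 and 3278 CPM in B16A hosts, in the order of the batches. mt-Rnr2 stood at 27300, 15954, 33533 and 18221 CPM in NOD hosts and at 24835, 22946, 34259 and 27001 CPM in B16A hosts. For both rRNAs the groups overlapped widely, and the spread within a group was larger than the gap between hosts. For mt-Rnr1 the overlap was fixed, since both batch 4 libraries lay below all others.

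The complex I subunit mRNAs overlapped as well. For mt-Nd1, mt-Nd5 and mt-Nd6 this was fixed, since both batch 4 libraries lay beyond all others. mt-Nd1 stood at 1342, 1242, 2078 and 5628 CPM in NOD hosts and at 1870, 1333, 1622 and 6424 CPM in B16A hosts. mt-Nd4, the mRNA with the smallest p, stood at 1096, 947, 1677 and 1426 CPM in NOD hosts and at 1827, 1065, 1480 and 2073 CPM in B16A hosts. The NOD library was the lower one in 3 of 4 batches for both genes. mt-Nd2 ranged from 826 to 1322 CPM in NOD hosts and from 865 to 1383 CPM in B16A hosts, mt-Nd5 from 1536 to 3295 and from 1494 to 4148 CPM, and mt-Nd6 from 175 to 642 and from 154 to 775 CPM.

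Of the remaining abundant mRNAs, mt-Co1 stood at 2474, 1991, 3162 and 3575 CPM in NOD hosts and at 2870, 2624, 2722 and 5444 CPM in B16A hosts. mt-Cytb, cytochrome b of complex III, stood at 2067, 1957, 3001 and 5561 CPM in NOD hosts and at 2735, 1938, 2259 and 6636 CPM in B16A hosts. In both genes and both hosts the batch 4 library was the highest.

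No mitochondrial gene was called different between the hosts. With edgeR's quasi-likelihood test and Benjamini-Hochberg adjustment over the 14607 genes that passed the filter on low counts, 0 of the 11 mitochondrial genes that passed were called (adjusted p under 0.05), against 0 of all genes (0%). At an unadjusted p under 0.05 stood 0 of the 11 and 34 of all genes, and DESeq2 called 0 of the 24 mitochondrial genes and 0 of the 39568 genes it tested. All 11 fitted log2 fold changes (NOD over B16A) were below 0, from -0.76 to -0.08, with a median of -0.17 beside a median of 0.03 over all genes. The largest among the rRNAs and mRNAs was that of mt-Nd4, at -0.32 (standard error 0.32). mt-Rnr1 stood at -0.08 (standard error 1.05, or 0.20 with batch as a term). Of the tRNA genes, mt-Tl1 stood at -0.76 (standard error 0.78) and mt-Tp at -0.14 (standard error 1.25), or 0.39 with batch as a term. No gene of the 11 had groups that did not overlap, which held for 0.596% of all genes tested (0.205% higher and 0.39% lower). For most of the 11 this was fixed by batch 4 and says nothing about the hosts. In mt-Rnr1, mt-Nd1, mt-Nd5, mt-Nd6, mt-Co1, mt-Cytb, mt-Tl1 and mt-Tp both batch 4 libraries, 1 per host, lay beyond all others.

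With batch as a term, which pairs the libraries by number, edgeR again called 0 of the 11 and 0 of all genes (0%), and 0 and 857 stood at an unadjusted p under 0.05. The fold changes of 10 of the 11 were then below 0, with a median of -0.24 beside 0.01 over all genes. mt-Nd4 again had the smallest p of the 11, with an edgeR adjusted p of 0.875 and a log2 fold change of -0.32 (standard error 0.16). Without batch 4, the paired fit called 32 of 15716 genes (0.204%, with 0.159% higher and 0.0445% lower) and 0 of the 10 mitochondrial genes tested.

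The sign of the difference went with the batch more than with the gene. Of the 9 abundant genes, 8 were lower in the NOD library in batch 1, 6 in batch 2, 1 in batch 3 and 8 in batch 4. The median log2 ratios over these 9 genes were -0.48, -0.10, 0.26 and -0.49. Over all genes tested the same medians were 0.01, 0.06, -0.03 and 0.05. The mitochondrial genes thus moved mostly together within a pair of libraries, and batch 3 went the other way from batches 1 and 4. Each batch holds 1 library per host, so these values have no replicate check.

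**Figure D2:**
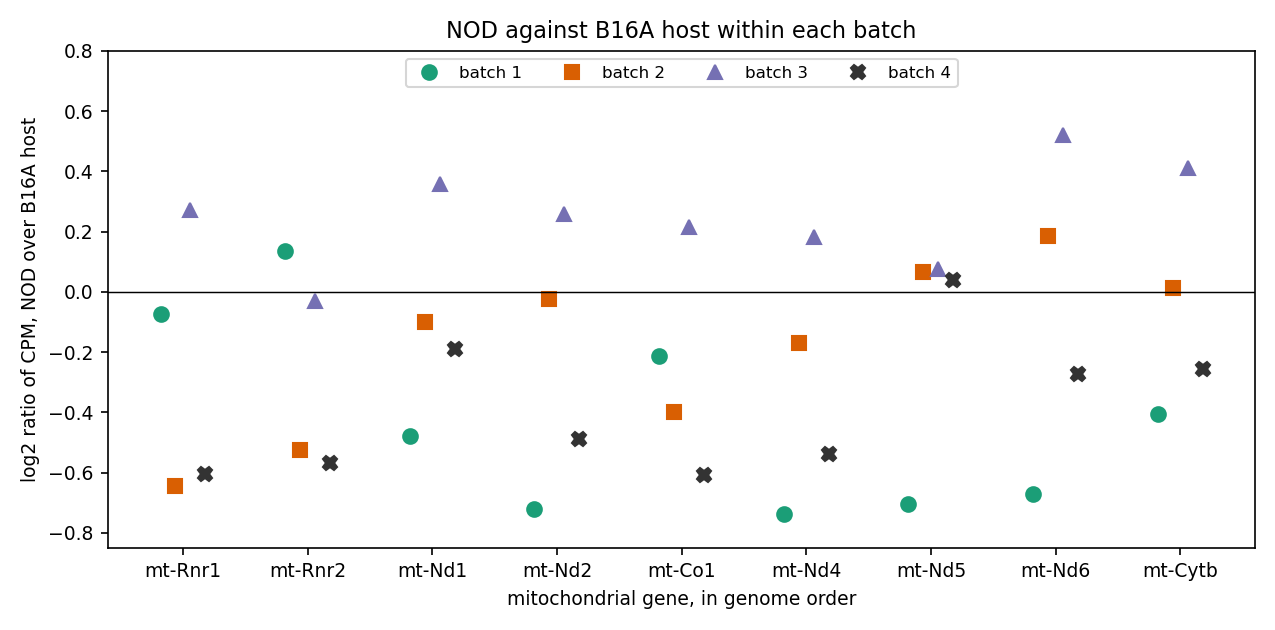
Ratio of the NOD to the B16A library (log2 of CPM) for the 9 abundant mitochondrial genes in genome order, 1 point per gene and batch, with no error because each batch holds 1 library per host. Batch 3 lies above 0 in 8 of 9 genes, and batches 1 and 4 lie below 0 in 8 of 9 genes each.

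The plot of ratios within each batch shows the exceptions: mt-Rnr2 in batches 1 and 3, mt-Nd5 in batch 4, and mt-Nd5, mt-Nd6 and mt-Cytb in batch 2, were on the other side of 0 from most of their batch.

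The second comparison set batch 4 against batches 1 to 3 by RNA class, with host as a term. Batch 4 was chosen because its libraries stood apart, and it is 1 batch of 2 libraries, so that its p-values measure the spread between libraries and not between batches. Depth, preparation and any other feature of batch 4 cannot be told apart. Most of the transcriptome differed: edgeR called 13547 of 18407 genes (73.6%), 28.3% higher and 45.3% lower, and the median log2 fold change of all genes was -0.66. Of all calls 38.5% were higher, and 26.2% when libraries were scaled by their totals without Gm10800 (an unnamed gene model with 5.87% to 17.1% of the counts of each library of batches 1 to 3, and 0.00205% and 0.00469% in batch 4). Fold changes are therefore also given relative to the median of all genes.

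The rRNAs parted from each other. mt-Rnr1 (chrM:70-1024, plus strand), at 31108 to 72515 CPM in batches 1 to 3, stood at 2154 and 3278 CPM in the NOD and B16A libraries of batch 4. It fell by 4.26 on the log2 scale (standard error 0.36, edgeR adjusted p = 4.01e-08), or 19.1-fold, and its difference from the median of all genes was -3.60. mt-Rnr2 (chrM:1094-2675, plus strand), at 15954 to 34259 CPM in batches 1 to 3, stood at 18221 and 27001 CPM in batch 4, inside that range. Its log2 fold change of -0.17 (standard error 0.27, edgeR adjusted p = 0.574) was not called, and it was called lower when libraries were scaled by total counts (-0.60) or by totals without Gm10800 (-0.75). Both rRNAs come from the same stretch of the long transcript, with only mt-Tv, the valine tRNA, between them.

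The ratio of the rRNAs does not depend on how libraries are scaled. Counts of 12S over 16S rRNA per base were 3.31, 3.23, 3.58 and 0.196 in the NOD libraries of batches 1 to 4. In the B16A libraries they were 3.83, 3.51, 2.90 and 0.201. The mean was 3.39 ± 0.32 (SD, n = 6) in batches 1 to 3 and 0.198 in batch 4, a 17.1-fold gap. With both batch 4 libraries below all others, the hosts had to overlap. The spread between the batch 4 libraries was far smaller than the gap.

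**Figure D3:**
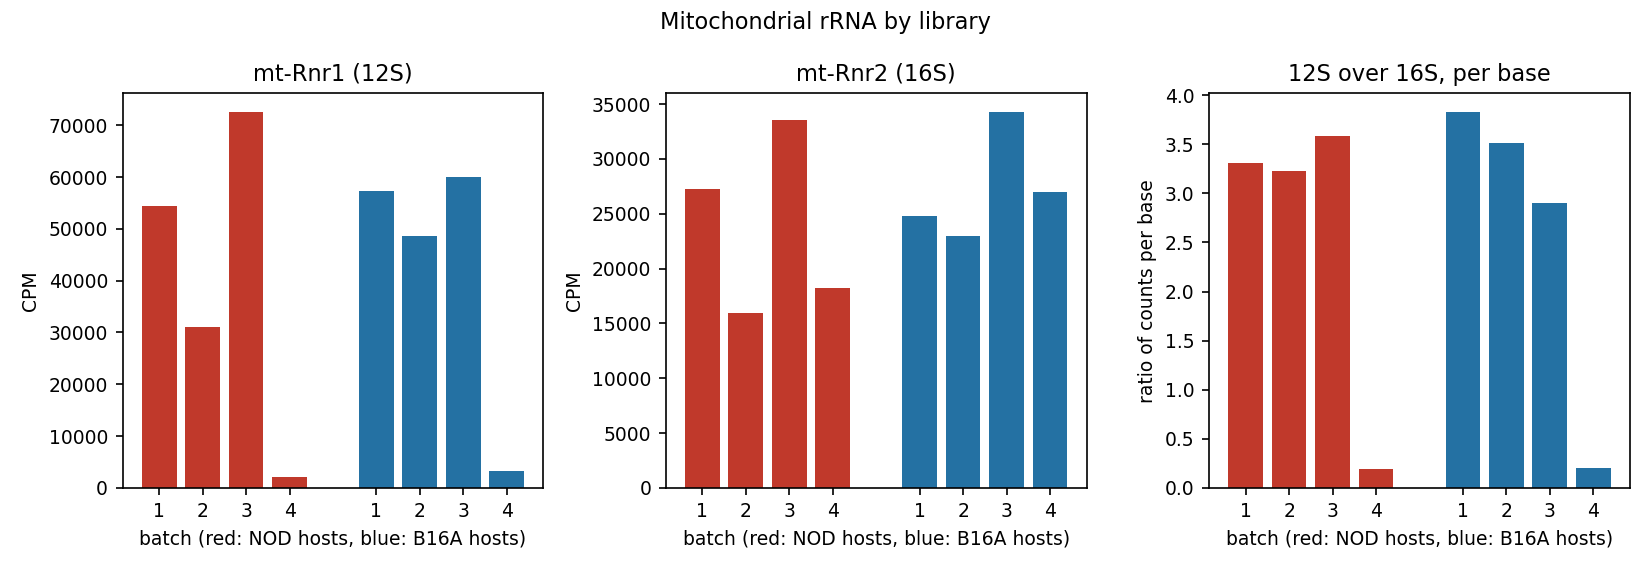
CPM of the 12S rRNA mt-Rnr1 and the 16S rRNA mt-Rnr2 and their ratio per base, 1 bar per library in the order of batches 1 to 4, NOD hosts in red and B16A hosts in blue. The ratio is 2.90 to 3.83 across batches 1 to 3, against 0.196 and 0.201 in batch 4.

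The bars by library show mt-Rnr1 low in batch 4 and mt-Rnr2 within its range of the other batches.

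Of the 7 mRNAs tested, 4 were higher in batch 4, 1 was lower and 2 were not called, against 28.3% of all genes higher and 45.3% lower. Among nuclear protein-coding genes 31.3% were higher and 42.9% lower, with a median of -0.41. The median of the 7 mRNAs was 0.83. All 7 had at least 937 counts in every library of batches 1 to 3.

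Complex I subunits differed most among themselves. mt-Nd1, a core subunit of the membrane arm (chrM:2751-3707, plus strand), measured 1242 to 2078 CPM across batches 1 to 3, against 5628 and 6424 CPM in batch 4. Both batch 4 libraries lay above all others, and the gene rose by 2.00 on the log2 scale (standard error 0.20, edgeR adjusted p = 3.49e-07). mt-Nd5, the largest mitochondrial subunit of complex I (chrM:11742-13565, plus strand), measured 2482 to 4148 CPM across batches 1 to 3, against 1536 and 1494 CPM in batch 4. Both batch 4 libraries lay below all others, and mt-Nd5 fell by 0.92 (standard error 0.22, edgeR adjusted p = 0.00151). Relative to the median of all genes, its difference was -0.26.

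mt-Nd6, the mRNA gene on the minus strand (chrM:13552-14070), measured 154 to 325 CPM across batches 1 to 3, against 642 and 775 CPM in batch 4, a rise of 1.72 (standard error 0.24). Whether the counting used strand is not given in the sources used here, so reads of the plus-strand transcript across mt-Nd6 and the minus-strand tRNA genes cannot be told from their own. mt-Nd2 stood at 826 to 1361 CPM and at 986 and 1383 CPM, and mt-Nd4 at 947 to 1827 CPM and at 1426 and 2073 CPM. Their log2 fold changes of 0.23 and 0.43 were not called, and that of mt-Nd2 was -0.20 under scaling by total counts. That of mt-Nd4 was -0.16 under totals without Gm10800, and 0.57 and called without the NOD library of batch 3.

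The other mRNAs were higher. mt-Cytb (chrM:14145-15288, plus strand) measured 1938 to 3001 CPM across batches 1 to 3, against 5561 and 6636 CPM in batch 4, a rise of 1.46 (standard error 0.20). mt-Co1 (chrM:5328-6872, plus strand) stood at 1991 to 3162 CPM and at 3575 and 5444 CPM, a rise of 0.83 (standard error 0.20) that was no longer called without the B16A library of batch 4 (0.53) or under scaling by totals without Gm10800 (0.24). For both genes the batch 4 libraries lay above the other 6.

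**Figure D4:**
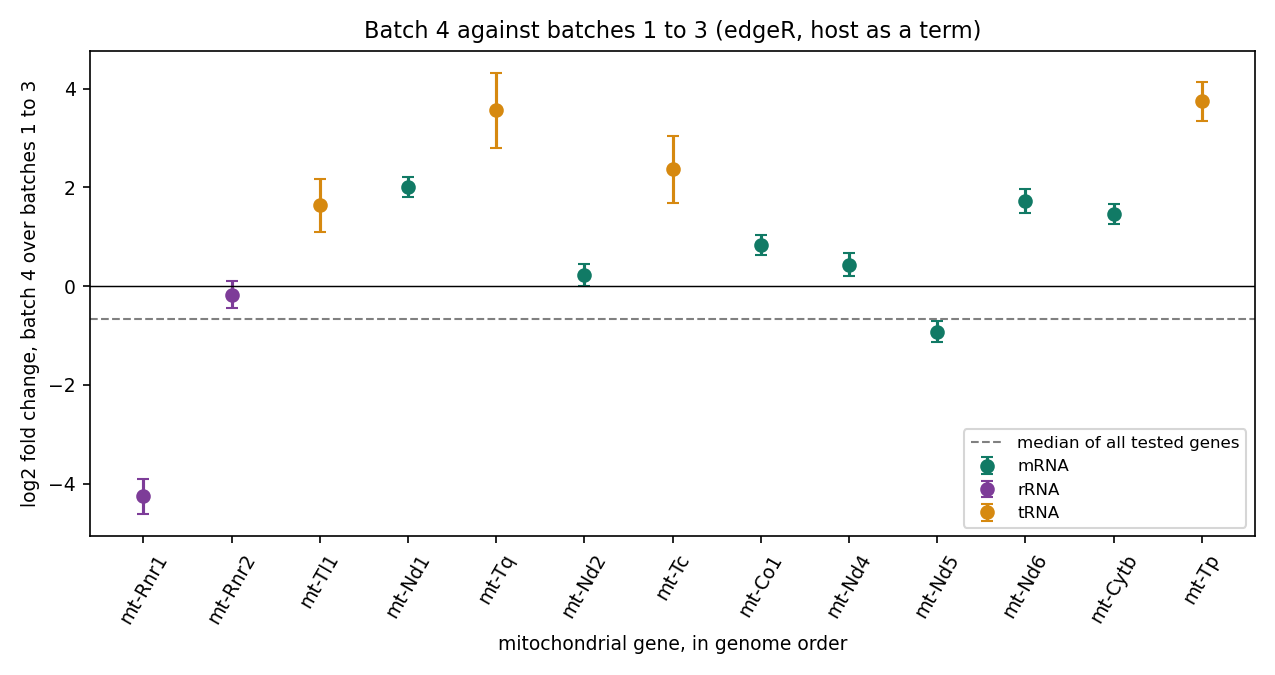
Log2 fold change of batch 4 over batches 1 to 3 for the 13 mitochondrial genes that passed the filter, in genome order, as fitted by edgeR with host as a term; bars are standard errors and the line marks the median of all genes, -0.66. mt-Rnr1 lies far below that line at -4.26, mt-Nd5 lies just below it, and the other 11 genes lie above it.

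Of the 13 genes drawn, mt-Tq, mt-Tc and mt-Tp passed the filter only through batch 4, so their place was fixed by the choice and they are left out of the counts that follow. Of the other 10, 8 lay above the line for all genes. In 5 of the 10 both batch 4 libraries were above the other 6 and in 2 both were below, beside 72.4% of all genes tested that did not overlap (27.5% above and 45% below).

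Ratios between mRNAs give the step without any scaling. mt-Nd1 over mt-Nd5 per base was 0.859 to 1.20 across batches 1 to 3, against 6.99 and 8.19 in the NOD and B16A libraries of batch 4. mt-Cytb over mt-Nd5 was 1.05 to 1.45 across batches 1 to 3, against 5.77 and 7.08 in batch 4. mt-Nd1 over mt-Nd2 was 1.49 to 1.76 and then 6.19 and 5.04, and mt-Nd6 over mt-Nd5 was 0.218 to 0.310 and then 1.47 and 1.82. These 4 ratios were chosen with the fold changes of the genes known, so they describe the size of the step and are no separate evidence of it. Across the 9 abundant genes, the fold change ran weakly against length (Spearman rho -0.38) and hardly with GC content (0.17), as a description over 9 genes that share the same libraries.

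As a share of all counts, the rRNA class took 8.43% ± 1.94 (SD, n = 6) in batches 1 to 3 and 2.09% in batch 4 (1.61% and 2.57%). The mRNA class took 1.28% ± 0.234 in batches 1 to 3 and 1.79% in batch 4 (1.53% and 2.06%), and these ranges overlapped. Within the mitochondrial counts, rRNA made up 82.8% to 88.6% across batches 1 to 3, against 51.2% and 55.5% in batch 4, and mRNA 11.4% to 17.2% and then 48.7% and 44.4%. The make-up over the 9 abundant genes, compared as the percent of mitochondrial counts that would have to move to turn one library into the other, differed by 50.0% to 54.6% between a batch 4 library and any other. Libraries of the same batch differed by 4.12% to 5.52%, and the remaining pairs, all within batches 1 to 3, by 1.12% to 6.57%. The range for hosts of the same batch lay inside that of the remaining pairs.

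**Figure D5:**
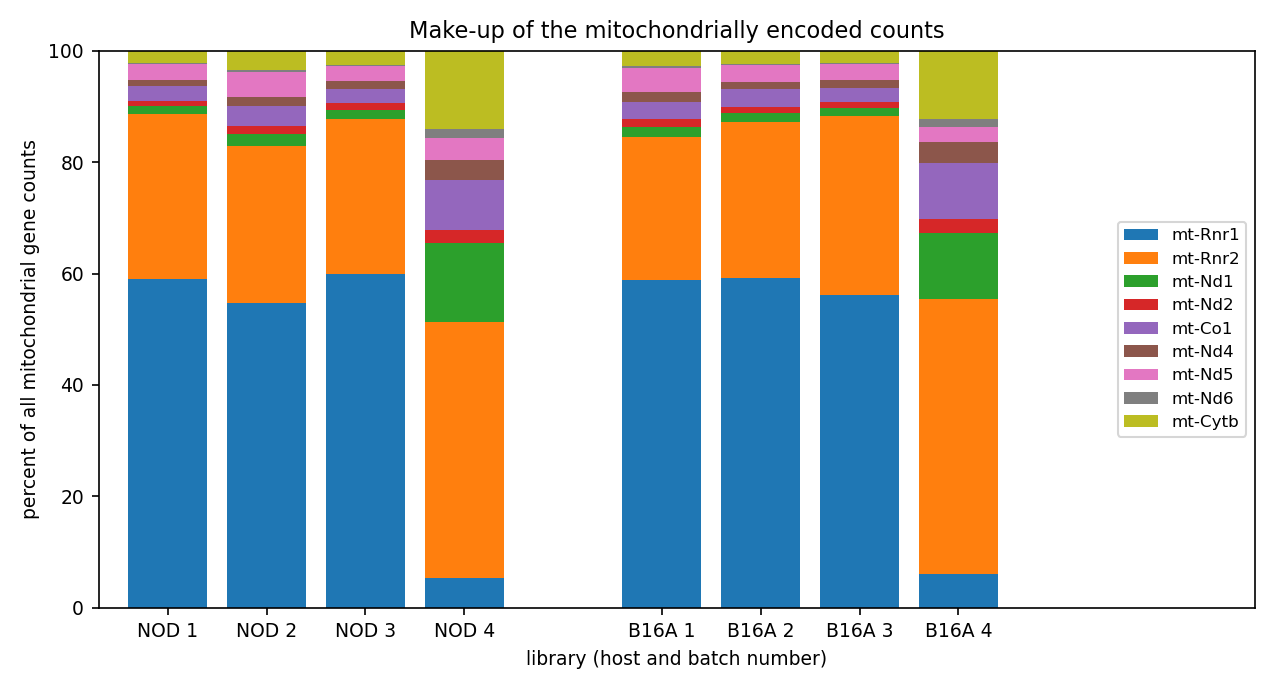
Stacked bars of the percent of all mitochondrial gene counts taken by each of the 9 abundant genes, 1 bar per library. mt-Rnr1 takes 54.7% or more across batches 1 to 3, against 5.42% and 6.01% in batch 4, and tRNA genes, under 0.1% everywhere, are too small to see.

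The stacked bars show that mt-Rnr2, at 25.5% of the mitochondrial counts or more in every library, was the largest item in batch 4 and the second in the other batches.

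The tRNA genes had few counts in all libraries: 34 to 52 counts in sum in each library of batches 1 to 3, and 636 and 1093 in the NOD and B16A libraries of batch 4. Reads from uncut transcripts across a tRNA gene cannot be told from the tRNA. The 4 tRNA genes that were called are shown whole with the anticodon, which reads the codon on the mRNA, in capitals. They are mt-Tl1 for leucine (chrM:2676-2750, plus strand), mt-Tq for glutamine (chrM:3772-3842, minus strand), mt-Tc for cysteine (chrM:5192-5257, minus strand) and mt-Tp for proline (chrM:15356-15422, minus strand).
mt-Tl1: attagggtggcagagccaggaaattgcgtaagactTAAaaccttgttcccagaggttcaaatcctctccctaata
mt-Tq: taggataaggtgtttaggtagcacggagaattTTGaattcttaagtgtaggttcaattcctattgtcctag
mt-Tc: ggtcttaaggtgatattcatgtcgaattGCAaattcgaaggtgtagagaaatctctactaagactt
mt-Tp: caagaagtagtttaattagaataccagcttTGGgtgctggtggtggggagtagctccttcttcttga

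mt-Tp had 14, 7, 14 and 364 counts in the NOD libraries of batches 1 to 4 and 7, 7, 7 and 507 in the B16A libraries. That is 1.07 to 2.41 CPM across batches 1 to 3, against 16.3 and 21.2 CPM in batch 4, a rise of 3.74 on the log2 scale (standard error 0.40, edgeR adjusted p = 7.69e-07). mt-Tq had 0 to 3 counts across batches 1 to 3, against 73 and 89 in batch 4, a rise of 3.56 (standard error 0.76). mt-Tc had 3 to 10 counts and then 55 and 153, a rise of 2.37 (standard error 0.68). mt-Tl1, which lies between mt-Rnr2 and mt-Nd1, had 5 to 18 counts and then 86 and 196, a rise of 1.63 (standard error 0.54). In each of the 4 genes both batch 4 libraries lay above all others. As mt-Tq, mt-Tc and mt-Tp passed the filter only with batch 4, they had to differ. mt-Tc and mt-Tl1 were no longer called without the B16A library of batch 4 (0.76 and 1.29), and mt-Tl1 was not called under scaling by total counts with Gm10800 (1.18) or without it (1.02).

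mt-Ta and mt-Tn, for alanine and asparagine, were too low for the fit. They had 0 counts in all libraries of batches 1 to 3, and 19 and 34, and 9 and 35, in batch 4. Set against an assumed floor of 3 counts over the 6 libraries (0.0823 CPM), their counts summed over batch 4 were 13.9-fold and 11.6-fold higher. These ratios are no lower bounds, since amplified reads are not independent molecules and the batch 4 libraries differed. In the NOD and B16A libraries of batch 4, mt-Ta stood at 0.851 and 1.42 CPM, and mt-Tn at 0.403 and 1.47 CPM. The other tRNA genes outside the span had 0 to 39 counts in any library, and mt-Te, for glutamate, had the most of them.

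Nuclear genes that copy, transcribe and process mitochondrial DNA and RNA were followed as a list of 42 genes in the table. Between hosts, edgeR called 0 of the 41 that passed the filter (0% of all genes, and DESeq2 also called 0 of all), with a median log2 fold change of -0.01. In batch 4, 21 of 42 were higher and 1 was lower, against 28.3% and 45.3% of all genes, with a median of 1.03. The 21 include Mterf1b, at 0.163 to 0.624 CPM across batches 1 to 3 and 4.26 and 2.72 CPM in the NOD and B16A libraries of batch 4. It was too low for the host fit and passed the filter here through batch 4, so its direction was fixed. Tfb1m, also among the 21, was near the filter's limit without batch 4, so its direction may have been fixed as well. It stood at 0.374 to 2.96 CPM across batches 1 to 3, against 10.8 and 9.97 CPM in batch 4. Mterf3, a regulator of mitochondrial transcription, measured 9.59 to 16.3 CPM across batches 1 to 3, against 116 and 111 CPM in batch 4, a rise of 3.19. Hsd17b10, a subunit of the enzyme that cuts the 5′ ends of mitochondrial tRNAs, rose by 3.20 and Polg2, a subunit of the mitochondrial DNA polymerase, by 3.19. Tfam, which packages mitochondrial DNA and starts its transcription, stood at 10.5 to 25.5 CPM and then 88.9 and 95.1 CPM, a rise of 2.50. The 1 gene called lower was Elac2, the enzyme that cuts the 3′ ends of tRNAs, at 31.4 to 46.4 CPM and then 19.3 and 16.5 CPM. It was named for standing alone in its direction.

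Nuclear RNAs without a protein product were followed beside the mitochondrial rRNA, together with the gene model Gm10800, whose class was not checked. Rn7sk, the 7SK RNA that restrains transcription elongation, measured 6178 to 16133 CPM across batches 1 to 3, against 5.02 and 6.37 CPM in batch 4. Rpph1, the RNA of nuclear ribonuclease P, stood at 380 to 770 CPM and then 1.70 and 2.77 CPM. In edgeR's fit Rn7sk fell by 10.79 on the log2 scale and Rpph1 fell by 7.96. Malat1, a long nuclear RNA, stood at 2228 to 3707 CPM and then 13333 and 17528 CPM, and rose by 2.52. Of the 6 genes tested, 5 were lower (Rn7sk, Rpph1, Rmrp, Neat1 and Gm10800) and 1 was higher, against 45.3% and 28.3% of all genes. What these RNAs share in batch 4 was not tested.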

How the data were processed

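Per the labels' protocols, the SeqPlex kit amplified RNA from the sorted T cells, and reads were single and 50 bases long. The authors deposited 1 table of raw read counts per gene, whole numbers with no normalization. The submitters' processing notes name STAR, HTSeq, DESeq2 and mm10. Versions, annotation, use of strand and the handling of reads with several matches were not given in the sources used here.

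As the main test, edgeR was run (version 4.0.16, R 4.3.3, with filterByExpr, TMM, robust glmQLFit and glmQLFTest, Benjamini-Hochberg over all genes tested, threshold 0.05). DESeq2 1.42.0 was an alternative. Standard errors of edgeR's log2 fold changes were derived from its test, as the absolute fold change over the square root of the F statistic. The scripts were tested on simulated data. The host comparison used all 8 libraries with no batch term, and the batch 4 comparison had host as a term. The numbers pair the libraries because the labels call them batches. Deviations from the group means correlated across genes within batches 1 to 4 at r = 0.625, 0.702, 0.611 and 0.906, and between libraries of different batches among 1 to 3 at 0.465 to 0.741. As batch 4 sets most of these deviations, the check does not tell partners apart in batches 1 to 3. Alternatives covered the batch term, scaling, filter, tool and each library left out.

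Every rRNA and mRNA gene was named, and of the tRNA genes those that were called or had a mean of at least 100 counts. Other tRNA genes are given by counts, and those named among them were chosen after their values were seen. Of each nuclear list up to 4 called genes with the smallest p were to be named. The members and lists were chosen with earlier results of these data known. Gene positions and sequences are from GENCODE vM21 (GRCm38). Intervals from counting error are not given, since amplified reads are not independent molecules.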

Additional observations from a re-analysis of the deposited data

Results flagged for a closer look

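In 11 of 34 groups of 4 libraries, 1 library lay far from the other 3, and in all 11 it was a batch 4 library. Chance alone flags about 1 in 20 groups, but these groups share the same 8 libraries and batch 4 had been chosen for standing apart, so their number adds nothing to that choice. Among the B16A libraries this held for mt-Nd1 (6424 CPM, others 1333 to 1870), mt-Co1 (5444 CPM, others 2624 to 2870), mt-Cytb (6636 CPM, others 1938 to 2735) and the tRNA gene mt-Tc (6.41 CPM, others 0.457 to 0.647). It held in both hosts for mt-Tq (NOD 3.27 CPM, B16A 3.73 CPM) and for mt-Tp, at 16.3 and 21.2 CPM. The share of all counts in tRNA genes was high in both hosts, at 0.00225% and 0.00389%, beside 0.000587% to 0.000848% elsewhere. The ratio of 12S to 16S rRNA per base was low in the NOD library, at 0.196, where the others stood at 3.23 to 3.58.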

How the results depend on the processing

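No alternative called a mitochondrial gene between the hosts, including fits with the replicate block that left out each batch in turn (those without batches 1, 2 or 3 were chosen after the data were seen). The sign of uncalled fold changes turned in some: mt-Tp was 0.39 with the replicate block, and 0.17, 0.37 and 0.22 without batches 1, 2 and 3; without batch 1, mt-Nd1 was 0.010, mt-Nd5 0.049, mt-Nd6 0.13 and mt-Cytb 0.045 (block); without batch 4, mt-Nd6 was 0.015 and mt-Cytb 0.0090 with the block and 0.023 with no block. The block changed no call. With single libraries left out and no block, the host fold changes ran from -0.90 to 0.71 (mt-Nd1), -0.75 to 0.56 (mt-Nd6) and -0.57 to 0.47 (mt-Cytb). They ran from -1.69 to 2.40 (mt-Tp), -0.45 to 0.053 (mt-Co1) and -1.47 to 1.19 (tRNA median). In all of these the low end came without the NOD library of batch 4 and the high end without its B16A library. Batch 4 was then in 1 host only. The range was -0.53 (without the NOD library of batch 3) to 0.32 (without that of batch 4) for mt-Rnr1. For mt-Nd5 it was -0.37 (without the B16A library of batch 4) to 0.077 (without that of batch 1). The cause was not tested.

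In the batch 4 comparison, mt-Tq, mt-Tc and mt-Tp passed the filter only through batch 4 and had to differ. Of the other 10 genes tested, the main fit called 5 higher and 2 lower, beside 28.3% and 45.3% of all genes. The counts that follow include the tRNA genes just named. In the main fit 10 of 13 mitochondrial genes tested were called (73.6% of all genes). The number called was 9 or 10 of 13 under the other scalings and without the host term (73.7% to 73.9%). It was 13 of 24 with no filter (55.7%) and 11 of 24 with DESeq2 (53.5%). Without single libraries it was 10 or 11 of 13 (70.3% to 72.8%), but 10 of 14 without the NOD library of batch 4 (59.6%) and 7 of 14 without the B16A library (62.4%). Scaled by total counts, the class medians were -2.64 (rRNA), 0.40 (mRNA) and 2.54 (tRNA), and mt-Nd2 was -0.20; by totals without Gm10800 they were -2.80, 0.24 and 2.39, with mt-Nd2 at -0.36 and mt-Nd4 at -0.16. The main values were -2.21, 0.83 and 2.96, and these scalings move the median of all genes to -1.10 and -1.27. The tRNA medians rest on 4 genes, of which 3 passed the filter only through batch 4, so their sign was largely fixed. mt-Rnr2 was 0.012 with no filter. Without single libraries it ran from -0.46 to 0.079, the mRNA median from 0.53 to 1.09 and the tRNA median from 2.17 to 3.70. mt-Nd4 was called with no filter (0.61) and without the NOD library of batch 3 (0.57). As shares of mitochondrial counts in place of all counts, rRNA was 86.5% in batches 1 to 3 and 53.4% in batch 4, mRNA 13.5% and 46.5%, and tRNA 0.00799% and 0.0778%. The tRNA genes had 0 to 18 counts per library in batches 1 to 3, so their values there are imprecise.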
